A study of Mus musculus with 6 samples.

Results

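The 8 mouse microRNAs (miRNAs) described here are mmu-miR-135a-5p, mmu-miR-135b-5p, mmu-miR-137-3p, mmu-miR-138-5p, mmu-miR-218-5p, mmu-miR-153-3p, mmu-miR-129-5p and mmu-miR-129-2-3p, shortened below to miR, which are known for roles in dendritic spines, excitability and synaptic scaling. They were chosen by name from 1978 mature mouse miRNAs listed in the count data. RNA bound to Spy3-AGO2, a peptide-tagged form of the Argonaute protein AGO2, was recovered from mouse cortex at postnatal day 14 on a resin carrying SpyCatcher3. The series holds 6 libraries in 3 groups of 2: AGO2-bound miRNA, AGO2-bound target and whole-lysate input. All of them come from VGLUT2-Cre;Spy3-AGO2 mice, in which the Cre driver switches on a conditional tagged allele, and the labels name pyramidal neurons as the cell type. Cell identity therefore rests on where VGLUT2-Cre was active and not on sorted cells. No mice without the tag or without Cre were analysed here. Whether each replicate is an animal of its own or a pool is not stated, so the spread between them may be technical.

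A miRNA guides AGO2 to messenger RNAs that pair with its seed, bases 2 to 8 counted from its 5′ end, and AGO2 bound there lowers translation and stability of the message. Each miRNA is cut from a hairpin precursor, and usually 1 of the 2 arms of the hairpin is kept while the other is degraded. In neurons miR-138-5p is known as a dendritic miRNA that restrains spine growth. miR-135 is known for spine remodelling and axon growth, miR-137-3p for neuronal maturation and presynaptic vesicle genes, and miR-153-3p for genes of transmitter release. miR-218-5p is known for excitability, and miR-129-5p for the scaling down of synapses after raised activity.

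The mature sequences are shown because the seed is the part that decides which messages a miRNA can pair with. They are RefSeq sequences on the GRCm38.p6 assembly (mm10) for 7 of the 8 miRNAs, and miR-135b-5p is named only. Capitals mark the seed.
miR-135a-5p: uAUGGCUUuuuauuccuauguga
miR-137-3p: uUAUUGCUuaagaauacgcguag
miR-138-5p: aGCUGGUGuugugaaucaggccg
miR-153-3p: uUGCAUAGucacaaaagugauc
miR-218-5p: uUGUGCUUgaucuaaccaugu
miR-129-5p: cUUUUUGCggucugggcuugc
miR-129-2-3p: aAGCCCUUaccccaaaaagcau

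The 7 seeds differ from one another, so the set is no single seed family. Among the 1679 listed miRNAs with a RefSeq sequence, which carried 88.9% and 88.6% of the counts of replicates 1 and 2, no counted miRNA shared bases 2 to 8 with any of the 7. The seed of miR-218-5p was shared with miR-7002-3p, which had 0 counts in both libraries. miR-448-3p, which shares bases 2 to 7 with miR-153-3p, had 0 counts in both as well. miRNAs without a matched sequence, miR-135b-5p and miR-129-1-3p among them, were not part of this search.

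The 7 sequences have a median GC content of 38.1%, with a range of 30.4% to 57.1%, against a median of 47.6% over 273 matched miRNAs with at least 10 counts summed over the libraries. miR-135a-5p is at the low end and miR-129-5p at the high end. 4 of the 7 begin with U, a base that human AGO2 binds well at the 5′ end, 2 with A and 1 with C, beside 45.4%, 27.1% and 16.1% of the 273 miRNAs. Of all counts on matched miRNAs, those that begin with U took 70.6% in replicate 1 and 70.1% in replicate 2, and those that begin with C took 3.20% and 3.35%. miR-129-5p, the member that begins with C, was the least counted of the 8. Whether the first base bears on the counts was not tested.

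The 8 miRNAs come from 11 hairpin genes on GRCm38.p6. miR-135a-5p is made from Mir135a-1 (chr9:106154124-106154213, plus strand) and Mir135a-2 (chr10:92072086-92072185, minus strand), and miR-135b-5p from Mir135b (chr1:132198088-132198184, plus strand), inside the span of Lemd1. miR-137-3p comes from Mir137 (chr3:118433857-118433929, plus strand), and miR-138-5p from Mir138-1 (chr9:122682876-122682974, plus strand) and Mir138-2 (chr8:94324311-94324381, plus strand), the second within Nup93. Both hairpins of miR-218-5p lie within genes of the axon guidance ligand Slit, Mir218-1 in Slit2 (chr5:48223942-48224051, plus strand) and Mir218-2 in Slit3 (chr11:35616816-35616925, plus strand). miR-153-3p comes from Mir153 (chr12:117250817-117250885, plus strand), within Ptprn2, a gene of dense-core vesicles. miR-129-5p is made from Mir129-1 (chr6:29022619-29022691, plus strand) and Mir129-2 (chr2:94241364-94241453, minus strand), and miR-129-2-3p from the second only, which lies in the lncRNA gene Mir670hg. The annotation used gives gene spans without exons, so intronic and exonic positions were not told apart.

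The miRNA libraries held 66854 and 75658 counts in replicates 1 and 2, and a count of 0 allows a share of up to 0.00449% and 0.00397%, taken as 3 counts over the total. Neuronal markers were high: miR-124-3p, miR-128-3p and miR-9-5p as a sum took 25.2% ± 0.115 (SD, n = 2) of the counts. Marker lists of other cells summed to 0.0673% and 0.0793% for 3 oligodendrocyte miRNAs, 0.148% and 0.143% for 3 endothelial and mural miRNAs, and 0.0209% and 0.0317% for 5 microglial and blood miRNAs, with miR-223-3p at 0 in both libraries. The lists held no astrocyte miRNA. miR-126a-3p of the endothelial list alone had a mean of 0.130%, above the 0.0757% of miR-129-5p. A share averages over all cells with tagged AGO2, so the number of cells and the amount per cell cannot be told apart. Intervals below are exact (Clopper-Pearson) 95% intervals and cover read counting error only.

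All 8 miRNAs were counted in both libraries. Together they had 2877 counts in replicate 1, or 4.30% of the library (interval 4.15 to 4.46), and 3454 counts in replicate 2, or 4.57% (4.42 to 4.72). The mean was 4.43% ± 0.185 (SD, n = 2). The libraries differed by a small part of that level, and replicate 2 was the higher. Of the 8, 5 ranked among the 50 most abundant miRNAs and 7 among the 100 most abundant. Above a mean share of 1% were 0 of the 8, beside 21 of the 310 miRNAs that reached 10 counts in the sum of both libraries. The median share of the 8 was 0.594%, beside 0.0627% for all 310. The members were chosen as known miRNAs and with earlier results of these data known. Their ranks and median therefore describe the chosen set and are no test.

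**Figure D1:**
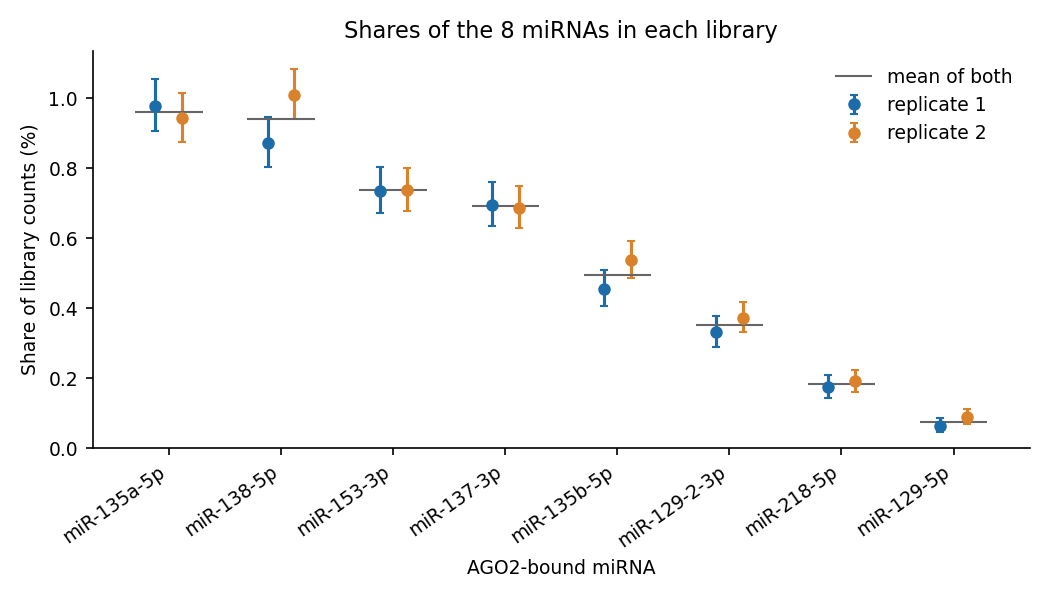
Share of library counts in percent for each of the 8 miRNAs, with 1 point per replicate library, exact 95% intervals as bars and the mean of both libraries as a line. miR-135a-5p and miR-138-5p stand between 0.872% and 1.01%, and miR-129-5p lies lowest at 0.0628% and 0.0886%.

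mmu-miR-135a-5p, which is linked to spine remodelling through the complexins, was first by mean. It had 654 counts (0.978%) in replicate 1 and 713 counts (0.942%) in replicate 2, a mean of 0.960% ± 0.0254 (SD, n = 2) and rank 24 of all miRNAs. Its partner mmu-miR-135b-5p had 304 counts (0.455%) and 406 counts (0.537%), a mean of 0.496% ± 0.0579 and rank 46. The 2 forms together took 1.46% ± 0.0326 of the counts. Of that sum, miR-135a-5p made up 68.3% (interval 65.2 to 71.2) in replicate 1 and 63.7% (60.8 to 66.5) in replicate 2. miR-135a-5p was thus 2.15 and 1.76 times as abundant by count. The forms are near-identical paralogs, and how the authors' counting treated reads matching both is not given in the sources used here, so the split between them is uncertain.

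mmu-miR-138-5p, which acts in dendrites on the depalmitoylating enzyme encoded by Lypla1, had 583 counts (0.872%) in replicate 1 and 764 counts (1.01%) in replicate 2. Its mean was 0.941% ± 0.0974 (SD, n = 2), at rank 26. It ranked 28 in replicate 1 and 20 in replicate 2, and its SD was the largest among the 8. The order of miR-135a-5p and miR-138-5p was not resolved: miR-135a-5p was higher in replicate 1 and miR-138-5p in replicate 2.

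mmu-miR-153-3p had 492 counts (0.736%) and 558 counts (0.738%) in replicates 1 and 2, a mean of 0.737% ± 0.00113 (SD, n = 2) and rank 33 in each library. mmu-miR-137-3p followed directly with 465 counts (0.696%) and 520 counts (0.687%), a mean of 0.691% ± 0.00583 and rank 34. miR-153-3p was above miR-137-3p in both libraries, and the gap of the means was larger than the sum of both SDs. Their counting intervals overlapped in both, however, 0.673 to 0.804% against 0.634 to 0.761% in replicate 1, so counting error alone could turn this order.

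mmu-miR-129-2-3p, the 3′ arm of Mir129-2, had 221 counts (0.331%) in replicate 1 and 282 counts (0.373%) in replicate 2, a mean of 0.352% ± 0.0298 (SD, n = 2). mmu-miR-218-5p, which targets potassium channel and glutamate receptor genes in hippocampal neurons, had 116 counts (0.174%) and 144 counts (0.190%), a mean of 0.182% ± 0.0119 and rank 83. mmu-miR-129-5p, known to bind the message of the potassium channel gene Kcna1, had 42 counts (0.0628%) and 67 counts (0.0886%), a mean of 0.0757% ± 0.0182 and rank 147. The 3 lowest members kept their order in both libraries, with no overlap of their counting intervals. miR-135a-5p had 15.6 times the counts of miR-129-5p in replicate 1 and 10.6 times in replicate 2.

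Of the 7 pairs of neighbours in the order of means, 6 had the same order in both libraries and a gap larger than the sum of both SDs. Apart from the pair at the top, the order was therefore the same in both libraries. Counts were not calibrated against known amounts of each miRNA, so the order is one of AGO2-bound read counts.

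**Figure D2:**
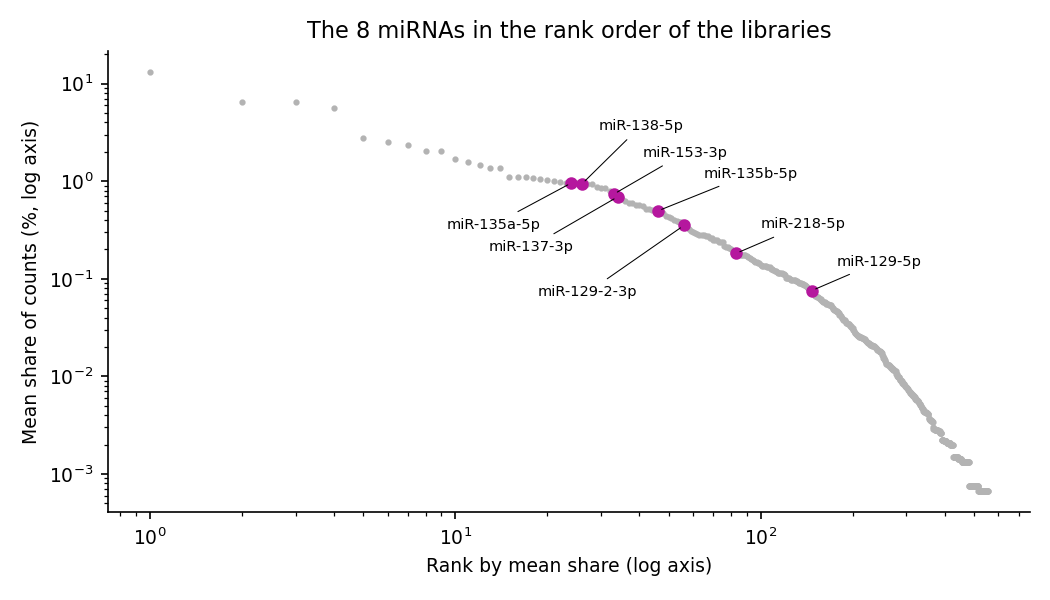
Mean share of counts in percent against rank for all miRNAs with a count (both axes logarithmic, grey points), with the 8 miRNAs as coloured points. They run from rank 24 (miR-135a-5p) to rank 147 (miR-129-5p), all below a mean share of 1%.

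The miRNAs closest in mean share were read from the same order, 1 above and 1 below each member. miR-135a-5p stood between miR-16-5p (0.965%) and miR-181a-5p (0.952%), and miR-138-5p between miR-181a-5p and miR-30c-5p (0.933%). miR-153-3p lay below miR-551b-3p (0.800%), and miR-137-3p above miR-369-5p (0.659%). miR-135b-5p stood between miR-99a-5p (0.504%) and miR-329-3p (0.470%), and miR-129-2-3p between miR-708-5p (0.383%) and miR-221-3p (0.345%). miR-218-5p stood between miR-3473b (0.185%) and miR-185-5p (0.181%), and miR-129-5p between miR-146b-5p (0.0778%) and miR-666-3p (0.0731%). In 13 of these 16 comparisons the gap was smaller than the sum of both SDs. The exceptions were miR-153-3p below miR-551b-3p and the pair of miR-153-3p and miR-137-3p, counted from each side.

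A list of 20 other miRNAs linked to synapses or neuronal maturation in earlier work covered a wider range, 0.0114% to 13.2%, with a median of 0.333% and a summed share of 42.0% ± 0.524 (SD, n = 2). Its most abundant members were miR-128-3p (13.2%), miR-125b-5p (6.43%), miR-9-5p (6.42%) and miR-124-3p (5.57%). miR-135a-5p was below 8 of the 20, miR-138-5p, miR-153-3p, miR-137-3p and miR-135b-5p below 9 each, miR-129-2-3p below 10, miR-218-5p below 12 and miR-129-5p below 15. miR-218-5p and miR-129-5p thus lay below the median of that list. The other members lay above its median, near the middle of its order.

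The agreement of the libraries was tested with an exact two-sided binomial test of each miRNA, which compares these 2 libraries and not conditions. Over the 310 miRNAs tested, 1.29% were called at a Benjamini-Hochberg adjusted p under 0.05, and 0 of the 8 members were. Of the 310 miRNAs, 46 (14.8%) had an unadjusted p under 0.05, and the libraries differed by more than counting error (chi-square 598 on 309 degrees of freedom). Of the 8 members 2 were among the 46, both higher in replicate 2: miR-138-5p (exact p = 0.00807, adjusted p = 0.158) and miR-135b-5p (exact p = 0.0292, adjusted p = 0.248). On the log2 scale, the ratio of shares of replicate 2 over replicate 1 was 0.21 for miR-138-5p and 0.24 for miR-135b-5p. The widest ratio was 0.50 for miR-129-5p, the member with the fewest counts (exact p = 0.0844, adjusted p = 0.416). Of the 8, 6 had a larger share in replicate 2, with a median log2 ratio of 0.15 and a lowest value of -0.05 for miR-135a-5p, beside 81 of 147 miRNAs counted at least as often as miR-129-5p and their median of 0.02.

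**Figure D3:**
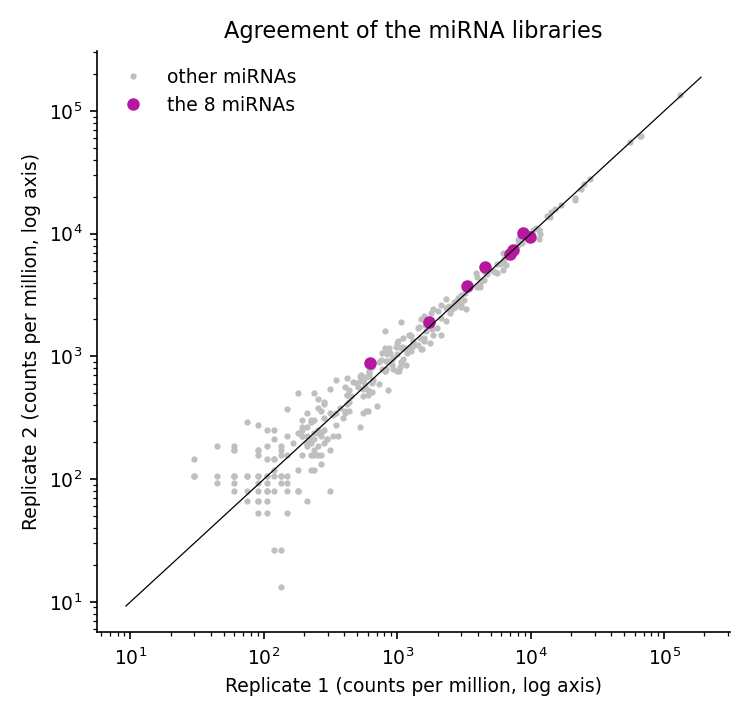
Library-scaled counts (CPM) in replicate 2 against replicate 1 for miRNAs with at least 10 counts summed and a count in both libraries (both axes logarithmic), with the 8 miRNAs coloured and the line of equal values. The 8 miRNAs lie close to the line, and miR-129-5p, with a log2 ratio of 0.50, departs most.

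The arms of each hairpin were then compared. For 6 of the 7 miRNAs taken as the main arm (miR-129-2-3p is counted with its partner), that arm held nearly all counts. miR-135b-5p had 304 and 406 counts in replicates 1 and 2 against 0 for miR-135b-3p in both. miR-135a-5p took 99.8% (interval 99.2 to 100) of the arm counts in replicate 1 and 99.9% in replicate 2, with a single count of miR-135a-2-3p in each library and 0 of miR-135a-1-3p. miR-137-3p took 99.4% and 99.8%, with 3 counts and 1 count of miR-137-5p. miR-218-5p took 98.3% and 98.6%, with 2 counts of its 3′ arms in each library.

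miR-153-3p and miR-138-5p left more of the other arm. miR-153-3p took 96.5% (interval 94.5 to 97.9) in replicate 1 and 96.9% (95.1 to 98.1) in replicate 2, beside 18 counts of miR-153-5p in each. miR-138-5p took 95.9% (94.0 to 97.3) and 96.5% (94.9 to 97.6). Its 3′ arms differ between the hairpins: miR-138-1-3p had 17 and 19 counts and miR-138-2-3p had 8 and 9. The Mir138-1 product therefore made up 68.0% (46.5 to 85.1) and 67.9% (47.6 to 84.1) of the 3′ arm counts. The intervals are wide at these counts, and in both the lower bound is below an even split. Across 113 name-matched arm pairs with at least 100 counts summed, the larger arm had a median of 98.2% of the counts, and in 83 it was over 90%.

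The miR-129 hairpins were the exception among the 7. Against 42 and 67 counts of miR-129-5p in replicates 1 and 2, the 3′ arms had 355 and 459 counts. miR-129-5p was thus 10.6% (interval 7.73 to 14.03) of the arm counts in replicate 1 and 12.7% (10.01 to 15.9) in replicate 2. The 3′ arms were split between miR-129-2-3p with 221 and 282 counts and miR-129-1-3p with 134 and 177, so that miR-129-2-3p took 62.3% (57.0 to 67.3) and 61.4% (56.8 to 65.9) of them. The count of miR-129-2-3p was the higher in both libraries, with an interval above an even split in each. As with miR-135, these 3′ arms are paralogs, and how reads matching both were counted is not known here, so the split is uncertain. miR-129-2-3p alone had 5.26 and 4.21 times the counts of miR-129-5p, although the 5′ arm can be made by both hairpins. All 3 miR-129 arms together took 0.645% ± 0.0717 of the counts (SD, n = 2).

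The literature on synaptic scaling concerns the 5′ arm, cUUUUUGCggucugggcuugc, while the seed more often counted here is that of the 3′ arm, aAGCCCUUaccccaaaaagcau. Mir129b is annotated on the opposite strand of the same site, chr2:94241378-94241442 on the plus strand. Its 5′ arm, shown because it overlaps miR-129-2-3p by 20 nt in antisense, is
miR-129b-5p: gCUUUUUGggguaagggcuucc
It had 7 counts in replicate 1 and 4 in replicate 2, against 221 and 282 for miR-129-2-3p, and miR-129b-3p had 0 in both libraries. Nearly all counts at the site thus belonged to the Mir129-2 strand.

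**Figure D4:**
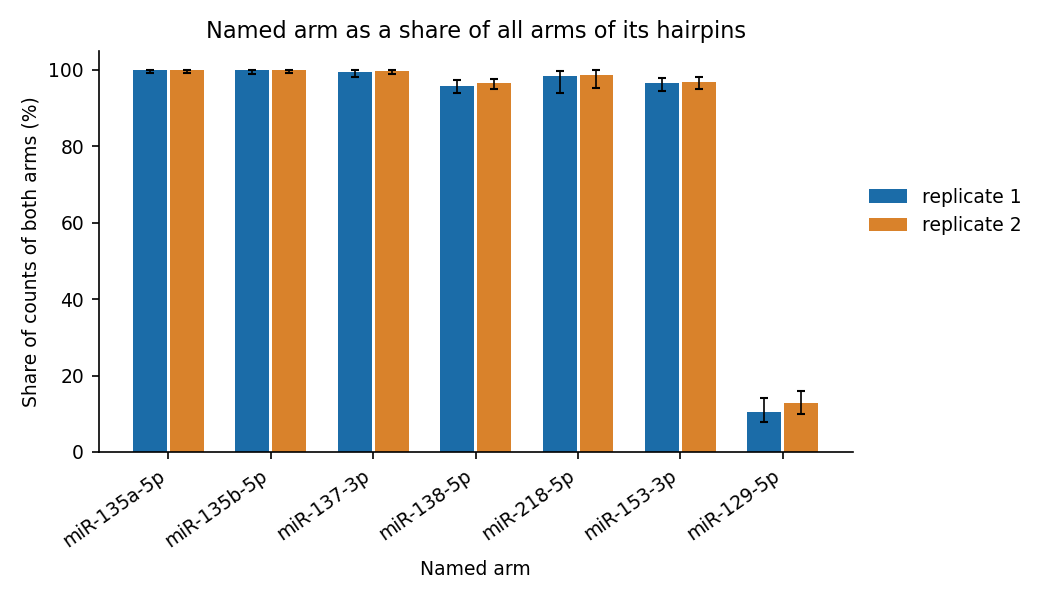
The named arm as a percent of the counts of all arms of its hairpins, with 1 bar per replicate library and exact 95% intervals. Bars of 6 miRNAs lie above 95% and those of miR-129-5p at 10.6% and 12.7%.

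The target side of the series was available as 1 list of 2197 peaks with position and strand and no value per library, so peaks have no replicate check. Peak names are not consecutive and reach peak13215 in Tcf4, so the list may be part of a longer one. A gene with 0 peaks below has none in this list, which does not show that AGO2 was not bound there. Of the hairpins of these miRNAs and the antisense Mir129b, 12 in all, 0 held a peak, and the nearest peak lay 27.0 kb (Mir153) to 1100 kb (Mir135a-2) away. Slit2, Slit3, Nup93 and Lemd1, whose spans hold hairpins, had 0 peaks each. Ptprn2 had 1, which also lies in the overlapping lncRNA gene Gm5441.

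Genes tied to these miRNAs in earlier work, 32 pairs with 31 genes, were then read for peaks. Of all protein-coding genes, 4.43% had a peak midpoint in their span; of the 31 genes, 13 did (41.9%). The 31 genes have a median span of 94.4 kb, against 17.2 kb over all protein-coding genes, and were not matched on span or expression, so the difference describes the list and is not a test of targeting. No genome sequence was used here, so whether a peak holds a seed match was not examined, and a peak is not assigned to any miRNA.

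For miR-135, 2 of 5 genes had a peak, both complexins, the proteins that clamp and promote vesicle fusion. Cplx1, which is also linked to miR-137, had 2 peaks (chr5:108519532-108519637 and chr5:108520033-108520103, minus strand), 1.03 and 1.51 kb from the 3′ end of its span. Cplx2 had 3, of which the outermost lay 0.037 and 1.25 kb from the end (chr13:54383857-54383916 and chr13:54382601-54382754, plus strand). The serotonin genes Slc6a4 and Htr1a and the transcription factor gene Klf4 had 0.

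For miR-137, 4 of 10 genes had a peak. Syt1, the calcium sensor of vesicle release, had 14, of which 13 lay within 6.85 kb of the end of the span and 1 lay 86.3 kb from it. Tcf4, a transcription factor gene, had 3 peaks, and Nsf, the ATPase that takes SNARE complexes apart, had 1 of 27 nt, 26.6 kb from the end (chr11:103848340-103848366, minus strand). The glutamate receptor gene Gria1, the calcium channel gene Cacna1c and the histone methyltransferase gene Ezh2 were among the 6 with 0.

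For miR-153, 4 of 6 genes had a peak: App, the amyloid precursor gene, with 9, the SNARE genes Snap25 with 8 and Vamp2 with 7, and the active zone gene Bsn with 6. The active zone gene Pclo and the trafficking gene Trak2 had 0. Of the 9 peaks in App, 7 lay 1.84 to 2.65 kb from the end, and the other 2 lay 61.0 and 62.6 kb from it.

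For miR-218, 3 of 6 genes had a peak. The AMPA receptor gene Gria2 had 3 (5.14 to 6.57 kb from the end) and the guidance receptor gene Robo2 had 1 (chr16:73895514-73895576, minus strand). Slc1a2, a glutamate transporter gene most abundant in astrocytes, had 45, so it alone holds 45 of the 103 peaks of the list. The potassium channel gene Kcnd2 and the guidance receptor genes Robo1 and Dcc had 0. For miR-129-5p, 1 of 3 genes had a peak, the calcium pump gene Atp2b4 (chr1:133703131-133703173, minus strand), while Kcna1 and Dcx had 0. For miR-138, 0 of 2 genes had one, Lypla1 and Sirt1.

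The gene strand was known for 22 of the 31 genes. All 85 peaks in those genes lay on the strand of the gene, and 75 lay in the last 10% of its span. Without Slc1a2 this was 34 of 40. Strand and position were not computed over all peaks of the list, so neither is known to be particular to these genes. Of the 103 peaks, 17 also lay in the span of another gene. They were the Syt1 peaks within 6.85 kb of the end (Gm36601), all Cplx2 peaks (LOC115488208) and a Slc1a2 peak (Gm13872).

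**Figure D5:**
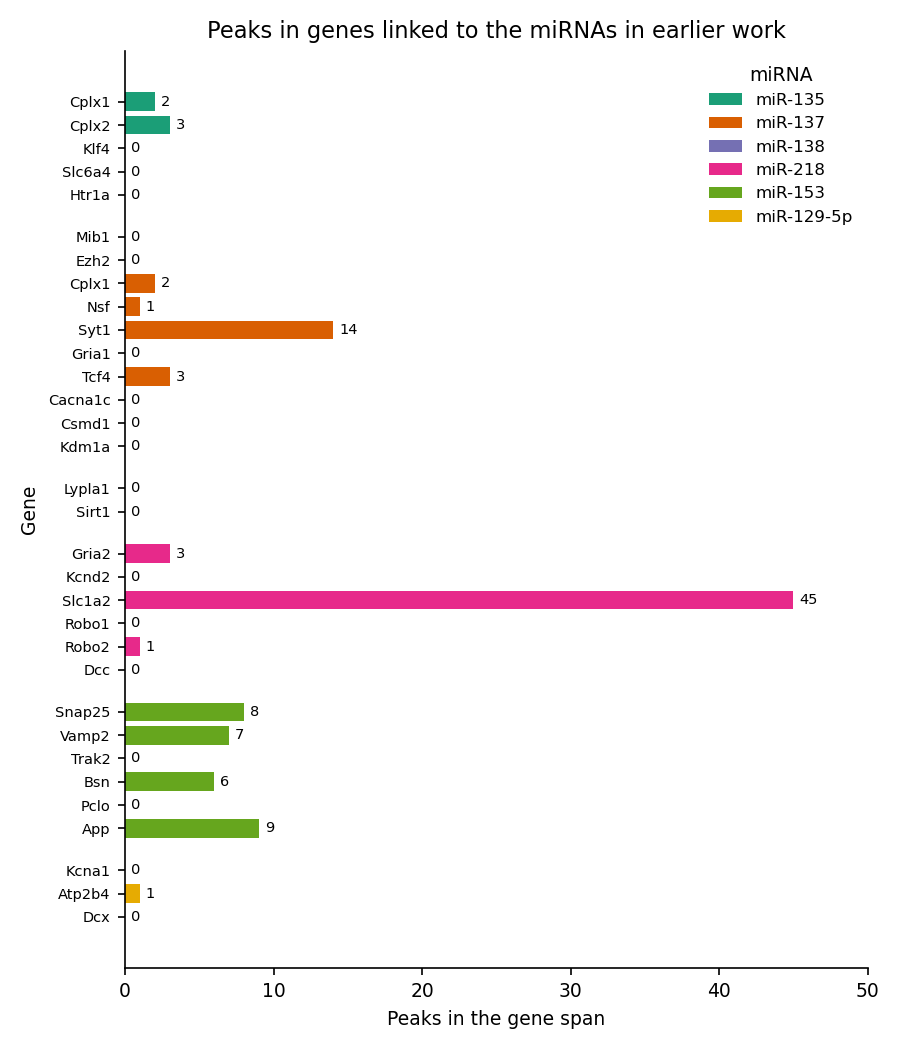
Number of peaks in the span of each gene tied to these miRNAs in earlier work, grouped and coloured by miRNA, with Cplx1 shown under both miR-135 and miR-137. Slc1a2 has 45 peaks and Syt1 14, and both genes listed for miR-138 have 0.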

How the data were processed

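Per the labels' protocols, RNA held by AGO2 was taken from a gel slice of 70 to 150 kDa, given adapters carrying random bases, and sequenced. deepTools 3.1.3, DESeq2 1.36.0, Bowtie2 2.4.2, STAR 2.5.2a, cutadapt 2.10 and UMI-tools appear in the submitters' processing notes, with the mm10 build and no stated roles, and no source used here names the peak caller. The miRNA values are deposited read counts per mature miRNA, not normalized, and their deposited name says that duplicates were kept, so 1 molecule can give several counts. The authors' peak list has a score of 0 for every peak, which ranks nothing.

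Shares are counts over the library total (mean and SD over 2 libraries), and 1 group allows no test between conditions. The unassigned row held 0 counts. On simulated libraries the exact binomial test (SciPy 1.17.1) called 19 of 20 miRNAs changed 2-fold, 19 of 20 changed 4-fold and 2 of 270 unchanged, with 311 tested. The changed miRNAs were drawn from a limited range of counts. The simulated libraries held counting error alone, while the real ones differed by more, so these rates need not hold for the real libraries. A peak was credited to each gene whose span held its midpoint, with gene strand from a RefSeq promoter table. Named are the 8 miRNAs, their other arms, rank neighbours, seed sharers, 4 miRNAs of the comparison list and 12 pair genes with a peak by the rule; 1 gene of the planned pairs is not reported here and was left out of all counts, and further genes, the 13th with a peak included, were named after their values were seen. The members and lists were chosen with earlier results of these data known. Alternatives covered single libraries, denominators, edgeR 4.0.16 TMM and DESeq2 1.42.0 size factors, count minimums and peak rules.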

Additional observations from a re-analysis of the deposited data

How the results depend on the processing

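Without miR-128-3p in the denominator, the summed share of the 8 miRNAs was 5.11% and the median over them 0.684%, against 4.43% and 0.594%, because the total is smaller by construction, and 7 of the 8 single shares moved by more than their SD. Of the 38 values under settings that kept both libraries, 29 stayed within the spread of the libraries or within 1.5 times a count. Many of the 29 are mean shares rescaled by TMM or DESeq2 factors. The factors of the 2 libraries multiply to about 1 (TMM 0.988 and 1.012), so such a mean barely moves by construction. The rescaled shares are therefore no check either. With 1 of 2 libraries left out, a mean always moves by less than the SD, so these values are no check of the shares; the summed share was then 4.30% to 4.57%. Of the 7 pairs of neighbours, 6 kept their order in replicate 2 alone. With TMM factors the binomial test called 11 of the 310 miRNAs in place of 4, and with at least 50 counts 7 of 194, with 0 of the 8 members called in every setting run and 1 or 2 at an unadjusted p under 0.05. The pair genes with a peak numbered 13 by any overlap, 12 with peaks of at least 30 bases and 10 with at least 2 peaks. No paired analysis was possible because the target and input libraries, which share replicate numbers with the miRNA libraries, have no values per library here. Depth limits the minor arms most, several of which rest on 0 to 3 counts.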
